A study of Arabidopsis thaliana with 24 samples.

Results

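The 145 probe sets described here had the strongest excess of signal in roots over leaves in Fe-supplied wild type plants, out of 22746 probe sets of the ATH1 array that are no AFFX controls. They were chosen by the week-matched difference of log2(signal + 16) between wild type roots and wild type leaves at + Fe, from the signals as deposited. The 150 probe sets with the largest smallest difference over the 3 harvest weeks were taken, and 5 of them were removed because they stand in the metal homeostasis table of the study. The removed probe sets were IRT1, the main Fe uptake transporter of the root epidermis, GLP9, AT3G13610, AT3G05950 and a probe set shared by AT5G38940 and AT5G38930. No AFFX control was among the 150. The members are thus root-enriched genes outside the known metal homeostasis category, and the question put to them was how their root signals stood at - Fe and in the nas4x-1 mutant.

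Plants were of ecotype Columbia and grew hydroponically on a quarter-strength Hoagland medium until an age of 5 weeks, the last 7 days either without Fe (- Fe, 0 µM FeNa-EDTA) or with 10 µM FeNa-EDTA (+ Fe). The mutant nas4x-1 carries T-DNA insertions in all NAS genes, which code for nicotianamine synthases, and the wild type (WT) is the same ecotype without them. The root groups were nas4x-1 - Fe, nas4x-1 + Fe, WT - Fe and WT + Fe, and the leaf groups were the same, with 3 arrays per group from 3 consecutive weekly harvests. A single mutant line stood for the genotype, and how many plants were pooled for an extract is not given in the sources used here. Nicotianamine is a chelator that carries Fe, Cu and Zn between cells and organs of plants. Roots take up Fe from the medium at the epidermis, and many genes that are read almost only in roots serve the cell wall, defence against soil organisms or the storage of defence compounds.

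The organ labels were in order. The 29 probe sets named as photosystem genes, which serve photosynthesis in green tissue, summed to signals from 2088 to 3736 on the 12 root arrays and from 54714 to 68417 on the 12 leaf arrays, and 6 or 7 of them had a mean under 16 in each root group. None of these 29 passed the test in any root comparison, with medians of -0.04 for nas4x-1 - Fe against + Fe and -0.14 for WT - Fe against + Fe (log2). The column medians of the arrays lay between 37.8 and 38.03, and with 3 arrays in a group the precision of the values is limited. The 3 arrays are separate weekly harvests, so each p rests on the spread between harvests. The SEs and intervals given come from a fit that did not pair the arrays by week. Shifts shared by the arrays of a week are thus part of them. Of the 4 NAS genes, only NAS1 had lower signals on every nas4x-1 root array than on any WT root array. NAS1 had signals from 8.80 to 31.2 on the 6 nas4x-1 root arrays and from 94.2 to 943 on the 6 WT root arrays, whereas NAS2 had signals from 94 to 345 on the nas4x-1 root arrays and from 25.5 to 168 on the WT root arrays, with the mutant higher in each week at either Fe supply. NAS3 had signals from 3.46 to 10.1 on the nas4x-1 root arrays and from 8.46 to 11.4 on the WT root arrays, all under the offset of 16. NAS4 had 18.2, 36.8 and 21 in nas4x-1 - Fe and 16.6, 29.2 and 18 in nas4x-1 + Fe, against 217, 57 and 11.8 in WT - Fe and 35.3, 5.88 and 5.95 in WT + Fe. No NAS gene passed the test in a root comparison, and where the probes lie relative to the insertions is not given in the sources used here. For some probe sets of the array, the levels in 2 groups were close to those of another probe set with the groups exchanged. Every higher probe set was set beside every lower one, and how often levels match in this way by coincidence was not computed. No member belonged to a pair in which both probe sets differed by at least 1.5 (log2) in opposite directions without overlap and had exchanged levels, and of the probe sets called in the array as a whole, 2 of 3, 11 of 17 and 9 of 16 in the comparisons below did. In whole organs, fewer cells of a type and less RNA per cell cannot be told apart.

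Of the 145 members, 75 matched 1 gene, 5 matched several genes and 65 matched none in the tables used here. Of those 75 genes, 10 lay on chromosome 1, 9 on chromosome 2, 20 on chromosome 3, 18 on chromosome 4 and 18 on chromosome 5. Most of these genes are given by their locus tag alone, and then no role is stated. The median signal of the members was between 723.3 and 936 on the root arrays and between 4.81 and 10.4 on the leaf arrays. On each root array this median stood above 96.5% or more of all probe sets. On the leaf arrays, 99 to 123 of the 145 members had a signal under the offset of 16, so that the size of a difference between organs depends on the offset.

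The largest difference belonged to AT4G33720, a member of the family of PR-1-like CAP proteins, which are secreted and are named after the pathogenesis-related protein PR-1. Its signals in weeks 1 to 3 were 3630.05, 5020.03 and 5643 in WT roots + Fe, against 0.92, 0.99 and 1.19 in WT leaves + Fe. In nas4x-1 at - Fe, an organ pair the choice did not use, it had 6403, 5505.1 and 4410.33 in roots, against 22.4, 7.33 and 14.96 in leaves. Next came AT3G01190, a class III peroxidase. These are secreted haem enzymes that cross-link or loosen wall polymers and need Fe for their haem. AT3G01190 had 3585, 4436 and 4217 in WT roots + Fe, against 0.81, 1.45 and 2.75 in WT leaves + Fe. Among the 10 named members with the largest differences were also the peroxidases AT5G64100 and AT5G19890, the glutamate decarboxylase GAD, which makes the amino acid GABA, and PYK10, the beta-glucosidase that fills the ER bodies of roots. The others were AT4G15390, AT2G21045, AT4G22212 and AT1G19530. PYK10 had 1933, 2781 and 3556 in WT roots + Fe, against 6.55, 1.28 and 3.56 in WT leaves + Fe. In this choice the smallest difference of the 3 weeks was 7.75 for AT4G33720 and 6.43 for PYK10 (log2). The 3 members just inside the threshold matched no gene and had 3.61, 3.60 and 3.57, and the 3 probe sets just outside, of which the peroxidase AT4G36430 was the only 1 with a gene match, had 3.57 each. The values of this choice are a description and were not tested.

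The excess in roots was also measured in the 3 conditions the choice did not use, and there all 145 members passed the test (limma, Benjamini-Hochberg adjusted p over 22746 probe sets, threshold 0.05). The spread behind these tests was estimated over all 8 groups, with those of the choice among them. Of all probe sets, 25% were called higher in roots for nas4x-1 - Fe, 25.4% for nas4x-1 + Fe and 25.1% for WT - Fe, and 44.6%, 45.6% and 44.8% were called in either direction. All 145 members were also higher in each of the 3 weeks and had no overlap between organs in these 3 conditions, beside 36%, 36.7% and 35.8% of all probe sets for the weeks and 28.6%, 30.6% and 29.1% for the overlap. The median log2 fold change of the members was 4.97 for nas4x-1 - Fe, 5.08 for nas4x-1 + Fe and 4.93 for WT - Fe, beside 0.04, 0.01 and 0.02 over all probe sets. The log2 fold changes ran from 2.96 to 7.48 for nas4x-1 - Fe, from 2.52 to 7.81 for nas4x-1 + Fe and from 3.19 to 7.87 for WT - Fe. AT3G01190 had 7.26 for nas4x-1 - Fe (SE 0.20, adjusted p = 7.0e-17), and PYK10 had 7.06 (SE 0.26, adjusted p = 4.3e-15). The lower end was held by a probe set that matched no gene, with a fold change of 2.52 for nas4x-1 + Fe (SE 0.64, adjusted p = 0.00288). Its signals there were 524, 810.34 and 1027 in roots, against 18.9, 288 and 217 in leaves.

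**Figure D1:**
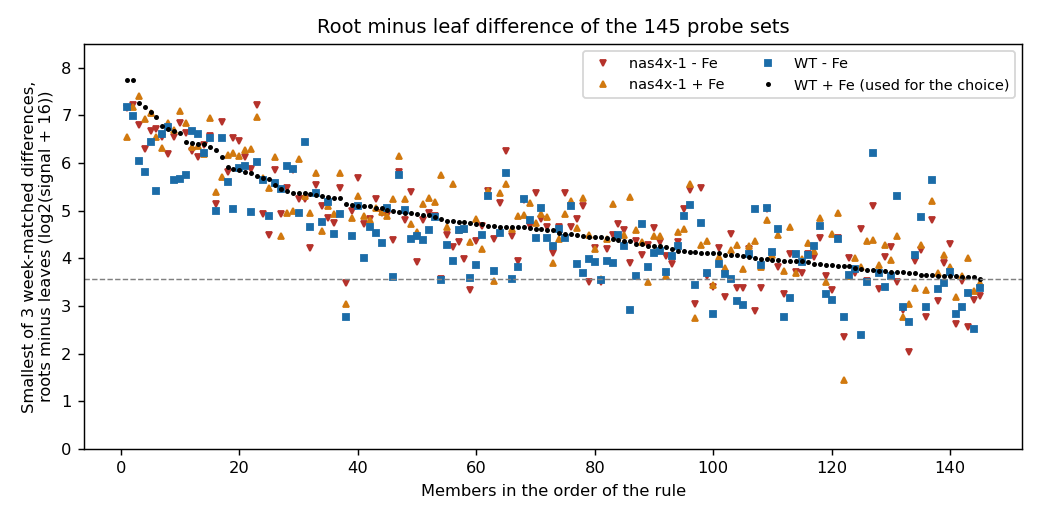
Smallest of the 3 week-matched differences between roots and leaves (log2(signal + 16), y axis) for each of the 145 members in the order of the rule (x axis), in nas4x-1 - Fe, nas4x-1 + Fe, WT - Fe and, as black points, WT + Fe, the condition used for the choice. The dashed line marks 3.57, the smallest difference of the choice, and 27 members for nas4x-1 - Fe, 15 for nas4x-1 + Fe and 27 for WT - Fe lay under it.

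The smallest difference of the 3 weeks stayed above 1 for every member in all of these conditions, and above 2 for 145, 144 and 145 members of nas4x-1 - Fe, nas4x-1 + Fe and WT - Fe. AT2G37130, a peroxidase, had the lowest of the 3 differences for nas4x-1 - Fe, with 2.03. AT1G50050, a PR-1-like CAP protein, had the lowest for WT - Fe, with 2.39, and its root signals there were 75.4 in week 1, 382 in week 2 and 458 in week 3.

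In nas4x-1 roots, no member passed the test for - Fe against + Fe. The arrays compared here took no part in the choice of the members. The spread behind each SE and p was estimated over all 4 root groups, with the WT roots + Fe arrays of the choice among them. Of all probe sets, 0.0132% were called (3 of 22746, all higher at - Fe). Among the members, 7 of 145 had an unadjusted p under 0.05, a share of 4.83% beside 3.61% of all probe sets. An error model built after the methods of the study, without their setting for the Bayesian error model, also called none. It is not the analysis of the study itself. When the week of harvest was taken as a block, these shares were 14.5% of the members (21) and 7.73% of all probe sets, and again no member was called, with a lowest adjusted p of 0.158 for AT5G40510. The median log2 fold change of the members was -0.08, beside 0.00 over all probe sets, and in weeks 1 to 3 it was -0.05, -0.11 and 0.04. A change of 1 or more (log2) was measured for 1 member upwards and 1 downwards. In the fit without the block, the 95% interval lay within 1 of 0 for 84 members. For the other 61 it reached beyond 1 in at least 1 direction. In 56 of these 61 the interval also held 0, and in 5, which were OSM34, AT5G40510, AT4G30170, AT2G43610 and AT4G31875, it did not, before adjustment over all probe sets.

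OSM34 had the largest positive value in nas4x-1 roots. It codes for osmotin 34, a protein of the thaumatin-like pathogenesis-related family. Its signals in weeks 1 to 3 were 4693, 2020.1 and 632 at - Fe, against 513, 461 and 424 at + Fe. All 3 values at - Fe were above those at + Fe, and the week 3 value at - Fe lay much closer to the + Fe arrays than the others did. The log2 fold change was 1.94 with a SE of 0.78, it did not pass the test, and it was 1.26 for OSM34 without week 1 of nas4x-1 - Fe. AT5G40510 had the lowest unadjusted p of the members, with 273, 213 and 335 at - Fe, against 504, 511 and 617 at + Fe. These groups did not overlap, and the log2 fold change was -0.97 (SE 0.24, adjusted p = 0.863 with limma). BAT1, an acyltransferase of brassinosteroid metabolism, had 392, 266 and 299 at - Fe, against 507, 465 and 471 at + Fe, with a log2 fold change of -0.58 (SE 0.17). Its groups did not overlap either.

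AT4G30170, a class III peroxidase, had 731, 429 and 905 at - Fe, against 1342, 955 and 1217 at + Fe (log2 fold change -0.80, SE 0.34). UGT71C1, a UDP-glucosyl transferase of secondary metabolism, had 239.54, 675 and 482 at - Fe, against 555, 987 and 825 at + Fe, with a log2 fold change of -0.81 (SE 0.49). The UGT71C1 groups overlapped across weeks, and within each week the - Fe array was the lower one. AT2G43610 had 2539, 2466 and 3117 at - Fe, against 2137, 1398 and 1601 at + Fe (log2 fold change 0.67, SE 0.26). The further members with the largest values in 1 direction in all 3 weeks were AT4G31875 (0.74), AT4G07820 (0.60), AT1G50050 (0.59) and AT1G19530 (0.49) upwards, and AT5G15180 (-0.90) and AT4G13580 (-0.56) downwards. In all 3 weeks, 22 members were higher and 24 were lower at - Fe, shares of 15.2% and 16.6%, beside 14% and 15.7% of all probe sets. Groups that did not overlap were found for 8 members with higher and 7 with lower signals at - Fe, 5.52% and 4.83%, beside 4.64% and 5.07% of all probe sets. These shares were near those of the whole array. By the log2 fold change, 57 members lay above 0 and 88 below, 39.3% above 0 beside 48.6% of all probe sets. This split was not tested.

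**Figure D2:**
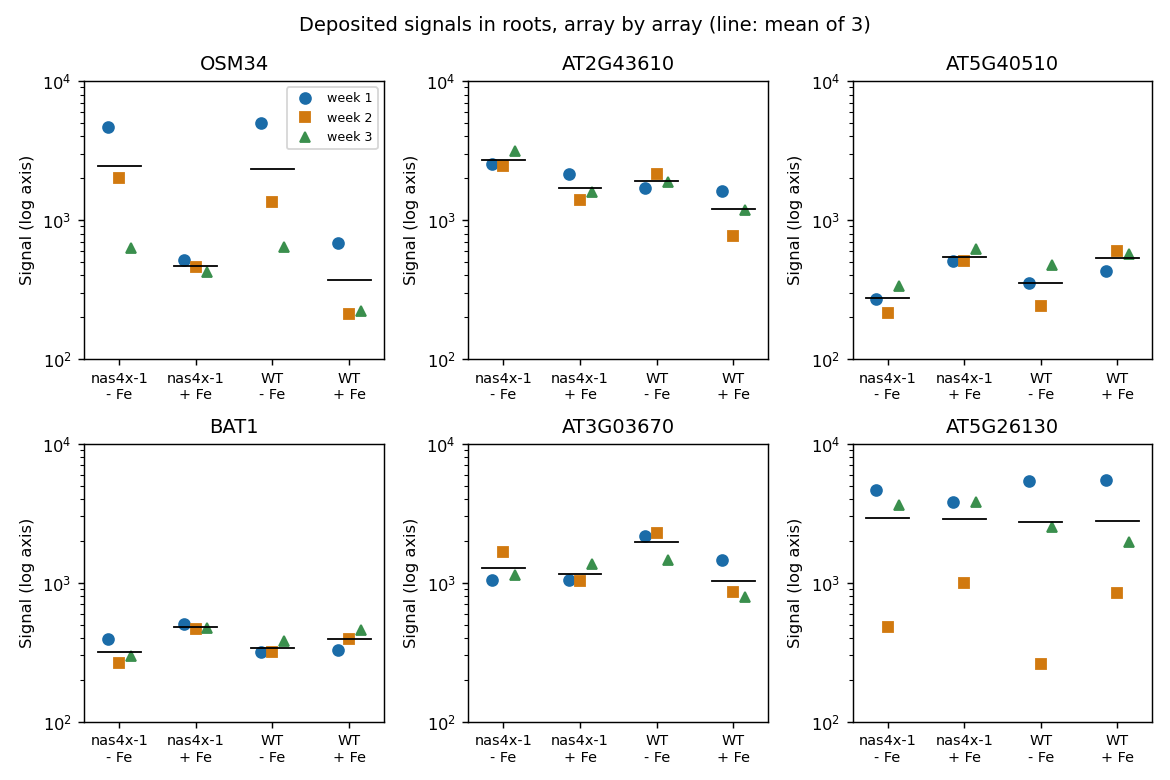
Deposited signals (y axis, log axis) of 6 members on the 12 root arrays, in nas4x-1 - Fe, nas4x-1 + Fe, WT - Fe and WT + Fe, with a symbol per harvest week and a line at the mean of 3 arrays. In nas4x-1 the 3 OSM34 signals at - Fe lay above those at + Fe and the 3 AT5G40510 signals at - Fe lay below those at + Fe, while in WT the OSM34 groups overlapped, and AT5G26130 was lowest in week 2 in all 4 groups.

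In WT roots, no member passed the test for - Fe against + Fe either, and neither did any other probe set (0% called). For the array as a whole this rested on single arrays. Without week 3 of WT - Fe, 35 probe sets were called higher and 1 lower, none of them a member. Without week 1 of WT + Fe, 1 was called in each direction, and leaving out any other array of these groups gave no call. This comparison uses the 3 WT roots + Fe arrays by which the members were chosen for being high, so that its direction is not read. An unadjusted p under 0.05 was found for 8 members (5.52%, beside 4.39% of all probe sets), and for 31 members (21.4%, beside 8.14%) when the week of harvest was a block, where the lowest adjusted p of a member was 0.264, for OSM34. The error model built after the methods called none. The median log2 fold change of the members was 0.00, beside -0.02 over all probe sets. In weeks 1 to 3 it was -0.11, -0.09 and 0.13. OSM34 had 5020.03, 1346 and 637 at - Fe, against 680.23, 212 and 221 at + Fe, a log2 fold change of 2.30 (SE 0.78), which was 1.5 for OSM34 without week 1 of WT - Fe. Here the week 3 value at - Fe was below the week 1 value at + Fe, although the - Fe array was higher in every week. AT3G03670, a peroxidase, had 2169.55, 2268 and 1456 at - Fe, against 1450.41, 864 and 789.92 at + Fe (log2 fold change 0.94, SE 0.27, adjusted p = 0.974 with limma). Its groups did not overlap. AT5G40510 had 351, 239.62 and 472 at - Fe, against 431, 594 and 572 at + Fe, with a log2 fold change of -0.60 (SE 0.24).

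AT2G43610 had 1699, 2149.7 and 1876 at - Fe, against 1630.27, 771 and 1171 at + Fe (log2 fold change 0.73, SE 0.26). The other members named for WT roots were AT4G22640 (0.85), AT3G54040 (0.80) and the peroxidase Prx37 (0.76) upwards, and AT5G15180 (-0.94), UGT71C1 (-0.80), AT3G29410 (-0.51), AT1G12010 (-0.51) and AT4G13580 (-0.51) downwards. None of these passed the test. Higher signals at - Fe in all 3 weeks were found for 32 members and lower ones for 26, 22.1% and 17.9%, beside 12.8% and 17.4% of all probe sets. Groups that did not overlap were found for 7 members with higher and 4 with lower signals, 4.83% and 2.76%, beside 3.52% and 4.46%.

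The Fe effects in nas4x-1 and in WT roots share no array. Over the 145 members the log2 fold changes of the 2 genotypes had a Pearson r of 0.71 and a Spearman rho of 0.64, and over all 22746 probe sets 0.55 and 0.35. Probe sets are not independent replicates, the arrays of both genotypes come from the same harvest weeks, and OSM34 lay far from the other members in both directions, so that these values are a description. The signals at - Fe were higher in both genotypes for 49 members and lower in both for 63, 33.8% and 43.4%, beside 26.1% and 34.1% of all probe sets. In all 6 week-matched pairs, 13 members were higher and 15 were lower at - Fe, 8.97% and 10.3%, beside 4% and 4.52% of all probe sets. The WT side of these counts holds the arrays of the choice, and nothing is read from them. Among the 13 were OSM34, AT2G43610, AT4G31875, AT4G07820, AT5G48430 and AT1G26250. Among the 15 were AT5G40510, UGT71C1, AT5G15180, AT4G13580, AT4G15390, AT3G01190, BAT1 and GH3.17, which conjugates the hormone auxin to amino acids.

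**Figure D3:**
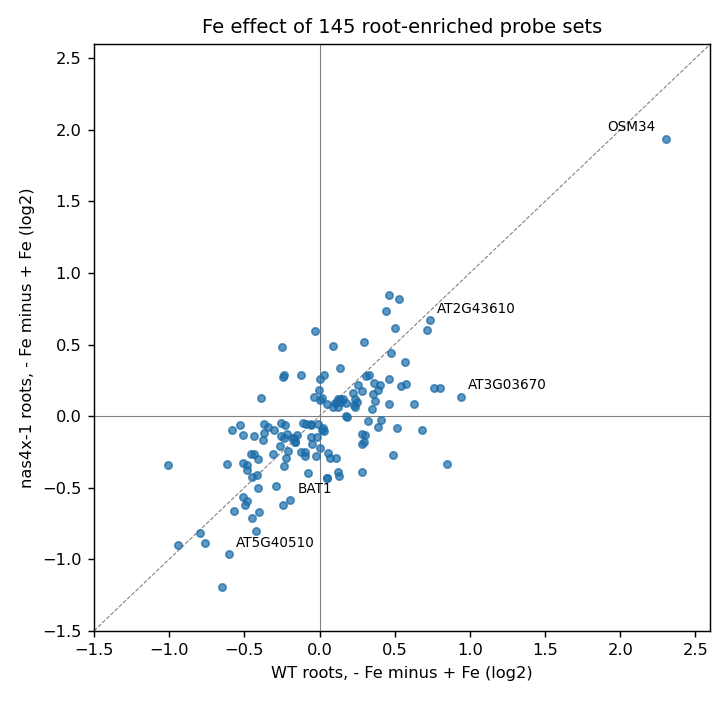
Log2 fold change of each of the 145 members for - Fe against + Fe in nas4x-1 roots (y axis) and in WT roots (x axis), with a dashed line where both are equal. OSM34, at 1.94 in nas4x-1 and 2.30 in WT, lay apart, and the Pearson r over the members was 0.71.

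At - Fe, no member differed between nas4x-1 and WT roots by the test. The arrays compared again took no part in the choice, and the spread was again estimated over all 4 root groups. This comparison shares the nas4x-1 - Fe arrays with the Fe comparison in the mutant. Of all probe sets, 0.0747% were called (17 of 22746), with 0.0396% higher (9) and the other 8 lower in nas4x-1. An unadjusted p under 0.05 was found for 3 members (2.07%, beside 2.65%), and for 11 (7.59%, beside 4.36%) when the week of harvest was a block. Neither the block nor the error model built after the methods called a member. The median of the members was 0.00, beside 0.01 over all probe sets, and 72 members lay above 0 and 73 below. AT1G50050, the PR-1-like CAP protein, had the largest positive value, with 663, 436 and 649.62 in nas4x-1, against 75.4, 382 and 458 in WT. The log2 fold change was 1.19 (SE 0.50), and without the low WT array of week 1 it was 0.44 for AT1G50050. AT5G01870 had 1043, 1481 and 695 in nas4x-1, against 420.01, 879 and 642 in WT (log2 fold change 0.71, SE 0.33).

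AT4G22640 had 214, 731 and 436 in nas4x-1, against 446, 1325 and 569 in WT (log2 fold change -0.74, SE 0.49). AT3G03670 had 1048, 1657 and 1132 in nas4x-1, against 2169.55, 2268 and 1456 in WT, with a log2 fold change of -0.62 (SE 0.27). For both genes the mutant was the lower one in each week, and across weeks the groups overlapped. The further members named at - Fe were AT3G25930 (0.60), AT2G43610 (0.50), AT4G31875 (0.35) and AT5G26280 (0.31) upwards, and AT4G22212 (-0.49), AT5G66390 (-0.48), AT2G37130 (-0.42) and AT2G04800 (-0.35) downwards. Of these, AT5G66390 and AT2G37130 are class III peroxidases. In all 3 weeks 23 members were higher and 21 lower in nas4x-1, 15.9% and 14.5%, beside 12.7% and 11.6% of all probe sets, and groups that did not overlap were found for 4 members with higher and 3 with lower signals, 2.76% and 2.07%, beside 3% and 2.34%.

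At + Fe, no member differed between nas4x-1 and WT roots by the test. This comparison uses the WT roots + Fe arrays of the choice, and 0.0703% of all probe sets were called (16 of 22746), with 0.0308% higher (7) and the other 9 lower in nas4x-1. The counts of members with an unadjusted p under 0.05 were 5 (3.45%, beside 1.96%), and 13 (8.97%, beside 3.46%) when the week of harvest was a block. No member was called with the block or with the error model built after the methods. The median of the members was 0.09, beside 0.00 over all probe sets, 96 members lay above 0 and 49 below, and in weeks 1 to 3 the median was 0.18, 0.04 and 0.05. In all 3 weeks 31 members were higher and 9 lower in nas4x-1, 21.4% and 6.21%, beside 11.7% and 12.1% of all probe sets. Groups that did not overlap were found for 9 members with higher and 4 with lower signals, 6.21% and 2.76%, beside 3.17% and 2.99%. Since the WT + Fe arrays chose the members, nothing is read from these shares.

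AT1G26250 had the largest positive value among the named members, with 1871, 742 and 617 in nas4x-1, against 759.8, 556 and 524 in WT (log2 fold change 0.64, SE 0.45). AT1G50050 had 562, 362 and 257 in nas4x-1, against 248, 261 and 236 in WT (log2 fold change 0.56, SE 0.50). The week 1 array of nas4x-1 was the highest of each of these genes, and without it the log2 fold changes were 0.16 for AT1G26250 and 0.28 for AT1G50050. The other members named at + Fe were AT2G43610 (0.56), AT5G01870 (0.50), AT3G46280 (0.48) and AT4G22640 (0.44) upwards, and AT2G37130 (-0.33), AT3G27150 (-0.32), AT4G39675 (-0.19) and AT1G61590 (-0.12) downwards. AT2G43610 was the 1 gene named in all 4 comparisons, with 2137, 1398 and 1601 in nas4x-1 at + Fe, against 1630.27, 771 and 1171 in WT at + Fe.

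The Fe effect was not shown to differ between the genotypes for any member. The interaction of genotype and Fe supply, which is the Fe effect in nas4x-1 minus that in WT, had no call among the members and none among all probe sets (0% called), and an unadjusted p under 0.05 was found for 1 member (0.690%, beside 1.53%). Neither the harvest week as a block nor the error model built after the methods called a member. The interaction was lowest for AT4G22640, with -1.18 (SE 0.70), and AT3G03670 had -0.80 (SE 0.38), AT3G54040 -0.61, Prx37 -0.57, NAI2 -0.48 and AT3G22570 -0.48. The largest named positive values were those of AT1G70880 (0.66), AT3G25930 (0.52), AT1G33055 (0.52), AT3G27150 (0.32), GH3.17 (0.25) and AT4G39675 (0.22). The comparison includes the arrays of the choice, and nothing is read from its direction.

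**Figure D4:**
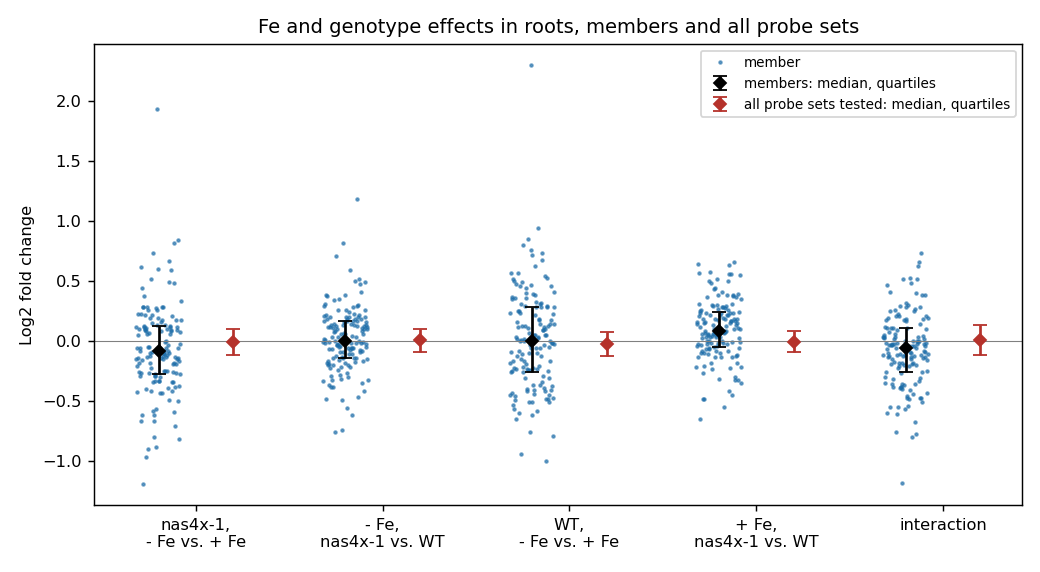
Log2 fold change (y axis) of the 145 members (blue points) in the 5 root comparisons, with the median and quartiles of the members (black) beside those of all 22746 probe sets (red). The medians of the members ran from -0.08 for nas4x-1 - Fe against + Fe to 0.09 for nas4x-1 against WT at + Fe. The quartiles of the members were wider than those of all probe sets, most of which were much dimmer.

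The members spread more between arrays of a group than the average probe set did. The median SD over 3 arrays was 0.39 for nas4x-1 - Fe, 0.26 for nas4x-1 + Fe, 0.40 for WT - Fe and 0.37 for WT + Fe (log2), beside 0.19, 0.15, 0.18 and 0.19 over all probe sets. Much of this spread was shared by the arrays of a harvest week. The mean over the 4 root groups differed between the weeks by a median of 0.57 for the members and 0.23 for all probe sets (log2, highest minus lowest week), and for 103 members this range was above the largest of the 4 Fe and genotype effects, 71% of the members beside 57.6% of all probe sets. A range over 1 was found for 30 members, 20.7%, beside 3.57% of all probe sets. AT5G26130, a PR-1-like CAP protein, had the widest range of 3.02. In week 2 its signals were 478, 999.57, 259 and 842 in nas4x-1 - Fe, nas4x-1 + Fe, WT - Fe and WT + Fe, and in week 1 they were 4659, 3818, 5408 and 5505.1. Among the other members with 1 gene, OSM34 had week means of 10.7, 9.54 and 8.84, and AT4G07820 had 11.3, 9.61 and 9.67 (log2). For the 10 named members with the largest organ difference, the log2 fold changes lay between -0.42 and 0.49 for nas4x-1 - Fe against + Fe and between -0.49 and 0.18 for nas4x-1 against WT at - Fe.

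In the lists below, a gene is called measured if it matched a probe set of its own in the tables used here. The 65 members without a match could not be placed in any list. Of the class III peroxidases, 55 of 73 were measured in this sense, and 14 of these, with 1 probe set shared by AT2G38390 and AT2G38380, were members. This list and that of PR-1-like CAP proteins were drawn up after the members had been seen. No measured peroxidase passed the test in any root comparison. For nas4x-1 - Fe against + Fe the 15 members had a median of -0.15, with 6 above and 9 below 0, and the 41 measured peroxidases outside the members had a median of -0.01. Against WT at - Fe, the mutant had medians of 0.01 over the 15 members and -0.05 over those 41, and without week 1 of WT - Fe the median of the Class III peroxidases among the members was -0.17. In 4 of the 15 the signal was lower at - Fe in all 3 weeks in nas4x-1, and in none was it higher. Of the 41 outside the members, 6 were lower and 7 higher in this way, and of all probe sets 15.7% and 14%. In WT roots, 4 of the 15 were lower and 6 higher at - Fe in all 3 weeks, with the arrays of the choice among those compared. AT5G15180 had 250.23, 284 and 512 in nas4x-1 - Fe, against 376, 765 and 883 in nas4x-1 + Fe, and AT3G01190 had 3649, 3117 and 4181, against 4292, 4346 and 4346. AT5G17820 had 1788, 1107 and 2415 in nas4x-1 - Fe, against 1344, 1230.14 and 1608 in nas4x-1 + Fe (log2 fold change 0.28, SE 0.30).

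Of the PR-1-like CAP proteins, 19 of 22 were measured, and 5 were members. None passed the test in a root comparison. The 5 members had medians of 0.15 for nas4x-1 - Fe against + Fe and 0.26 for nas4x-1 against WT at - Fe, beside -0.04 and 0.15 for the 14 measured ones outside the members. Without week 2 of nas4x-1 - Fe, the PR-1-like CAP proteins among the members had a median of 0.76 for nas4x-1 - Fe against + Fe, and without week 1 of nas4x-1 - Fe one of -0.21 for nas4x-1 against WT at - Fe. AT4G07820 had 2833, 757 and 1557 in nas4x-1 - Fe, against 1848, 724 and 699 in nas4x-1 + Fe. AT4G33720, the brightest, had 6403, 5505.1 and 4410.33, against 4083.7, 5408 and 5297, a log2 fold change of 0.15 (SE 0.24). The brightest signals of the arrays take a few shared values, since quantile normalization gives each array the same set of values, and 5505.1 recurs among them.

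ER bodies are spindle-shaped stores of beta-glucosidases in root cells of this plant family. PYK10 is their main enzyme, NAI2 is needed to form them, and the jacalin-related lectins JAL33 and JAL34 are found in the complexes that PYK10 forms after tissue damage. Of 15 genes of the list, 7 were measured by a probe set of their own, and PYK10, NAI2, JAL33 and JAL34 were members, with a further member shared by the beta-glucosidases BGLU22 and BGLU21. None of these 5 members passed the test in a root comparison, and their median was -0.11 for nas4x-1 - Fe against + Fe and -0.06 for nas4x-1 against WT at - Fe. PYK10 had 2985, 3019.79 and 3061 in nas4x-1 - Fe, against 3465, 2999.64 and 3354 in nas4x-1 + Fe (log2 fold change -0.11, 95% interval from -0.64 to 0.42). NAI2 had 864, 523 and 632, against 1082, 877 and 752, with a log2 fold change of -0.43 (SE 0.23), and it was lower at - Fe in all 3 weeks. JAL34 had 2869, 2085 and 3556, against 2787, 2608 and 2919.96, a log2 fold change of 0.00 (SE 0.23). BGLU22 and BGLU21 together had 1743, 2919.96 and 3369.98, against 3193, 2675 and 4693 (log2 fold change -0.39, SE 0.35).

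**Figure D5:**
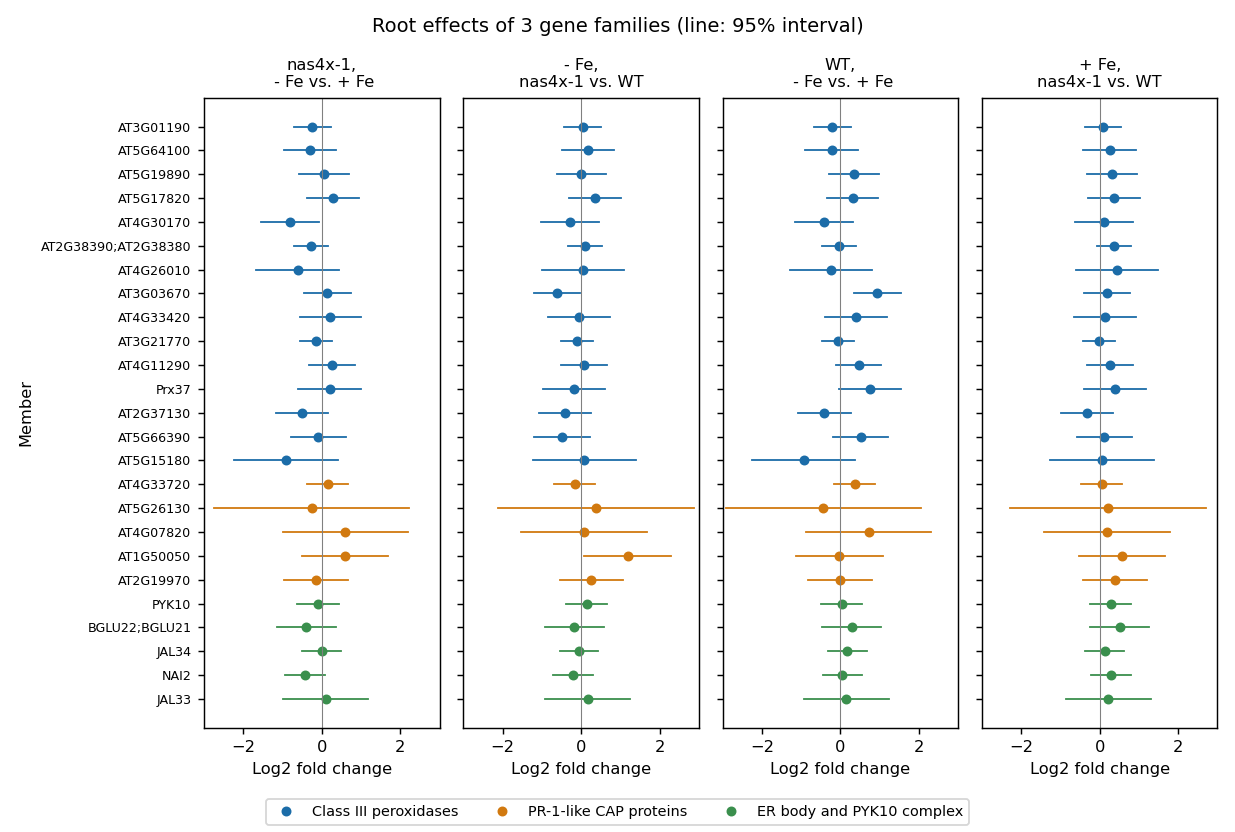
Log2 fold change (points, x axis) with its 95% interval (lines) of the 25 members that are class III peroxidases, PR-1-like CAP proteins or genes of the ER body and PYK10 complex, in 4 root comparisons. No member of these lists passed the test, and AT5G26130 had the widest intervals.

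The other lists drawn up for cell types and functions held no member that matched a gene. They covered root hairs, the Casparian strip, suberin, the stele, the meristem, triterpene gene clusters, the transport of nitrogen, phosphate, sulfate and potassium, aquaporins and major latex proteins. Few of their genes matched a probe set of their own in the tables used here. Of all probe sets, 8612 matched no gene, so that a gene without a match may still be on the array. Whether members without a match belong to these lists cannot be told. Gene families were listed by the words of the gene descriptions, and a matched member described in other words would be missed. The lists thus do not show that a family is absent from the members. Of the measured genes, 2 were of root hairs, 2 of triterpene clusters, 1 of the Casparian strip and 1 of nitrogen transport, and these passed the test in no root comparison. Neither did the 1 leaf mesophyll marker, the 14 glutathione S-transferases, the 30 genes of expansins, extensins and XTH enzymes of the cell wall, the 1 gene of dirigent and laccase proteins, the 2 lipid transfer proteins and the 5 transcription factors measured. Of 29 cytochromes P450, 1 was called, as higher in nas4x-1 than in WT at - Fe. The 5 removed probe sets passed it in no root comparison either, and IRT1 had log2 fold changes of 1.42 for nas4x-1 (SE 0.58) and 2.16 for WT (SE 0.58) at - Fe against + Fe.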

How the data were processed

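The data are signals of 24 ATH1 arrays, 3 for each of 8 groups. The authors determined them with MAS 5 in GCOS, scaled them to a common target and normalized them by quantiles, and the deposited values are intensities on a linear scale. The version of GCOS is not given in the sources used here. All value columns were used.

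For root comparisons, the 12 root arrays were normalized again by quantiles, and values moved by 0.0509 at most (log2). For comparisons of organs, the values were used as deposited. An offset of 16 was added, log2 was taken, and differences between groups were estimated by limma 3.58.1 (R 4.3.3), whose prior variance followed the mean intensity. Root comparisons were fitted over the 4 root groups and organ comparisons over all 8 groups. The p was adjusted by Benjamini and Hochberg over 22746 probe sets, after leaving out 64 controls, with a threshold of 0.05. Signals printed per array are as deposited. Of the 22746 probe sets, 13644 matched 1 gene, 490 several and 8612 none, and 196 matches came from tables of the study alone, as did that of GAD. An exact test of 3 arrays against 3 could not give a two-sided p under 0.1. The code of the fit was tried on simulated root arrays, for nas4x-1 - Fe against + Fe. Deviations were drawn independently for each array there, without shifts shared by a harvest week, and nothing is read from this trial.

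The members, the gene lists and the tests were chosen with earlier results of these data known. Named were, of members with 1 gene, the 10 with the largest smallest difference, those at the threshold, per root comparison the 6 with the largest change in each direction among those changed the same way in all 3 weeks, since none passed, and up to 4 of a list. BGLU22 and BGLU21 were named as a shared probe set, and members singled out for their spread between weeks were chosen after their values were seen, as was the search for pairs with exchanged levels, whose summed difference after the exchange was under 1 (log2).

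The replicate numbers are the harvest weeks, and they pair the arrays. For root arrays, the deviations from the group means correlated with 0.212 to 0.64 within a week and with 0.211 at most across weeks. For leaf arrays these values were 0.172 to 0.505 and 0.121. Alternatives were values as deposited or quantiles within organs, offsets of 1 and 64, a fit of the brightest probe sets without the dimmest 40%, a block for the week of harvest, no trend, a fit of only the 2 groups compared, leaving out each array, an error model after the methods of the study that averages over 500 probe sets, counting 150 after the removal, and the rule with an offset of 1.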

Additional observations from a re-analysis of the deposited data

Results flagged for a closer look

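For 3 members named above, the genotype effect pointed one way in all 3 weeks at - Fe and the other way in all 3 weeks at + Fe. AT4G22640 had a log2 fold change of nas4x-1 against WT of -0.74 at - Fe and 0.44 at + Fe, an interaction of -1.18. Prx37 had -0.18 at - Fe and 0.38 at + Fe, an interaction of -0.57. AT3G22570 had -0.26 at - Fe and 0.21 at + Fe, an interaction of -0.48. A further member, which matched no gene, had 0.41 at - Fe and -0.33 at + Fe, an interaction of 0.74. In all 3 weeks, 12.7% of all probe sets were higher and 11.6% lower in nas4x-1 at - Fe, and 11.7% and 12.1% at + Fe. The share of all probe sets with such a reversal was not computed. None of these interactions passed the test with limma, and the WT + Fe arrays that chose the members are part of each. With 3 arrays per group, no array was tested for lying far from the others of its group. Fits that left out 1 array at a time were run, and they are described below.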

How the results depend on the processing

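No member was called in a root comparison under any of the alternatives run, and every count of members called in a comparison of organs stayed within 144 to 150. With 1 array left out at a time, the median of the members ranged from -0.10 to -0.01 for nas4x-1 - Fe against + Fe, from -0.042 to 0.045 for WT - Fe against + Fe, from -0.026 to 0.095 for nas4x-1 against WT at - Fe (highest without week 2 of nas4x-1 - Fe) and from -0.14 to 0.019 for the interaction (highest without week 3 of WT - Fe), so that the sign of these last 3 medians rested on single arrays. In comparisons of roots and leaves, the median of the members was 6.90, 6.81 and 6.75 with an offset of 1 and 3.51, 3.61 and 3.54 with an offset of 64, for nas4x-1 - Fe, nas4x-1 + Fe and WT - Fe, and with the rule at an offset of 1 it was 4.79 for nas4x-1 - Fe and 4.86 for nas4x-1 + Fe. That rule gave 144 members, 100 of them shared. With 1 array left out, the values of these uncalled members changed sign: from -0.015 to 0.57 for AT5G26280 (nas4x-1 against WT at - Fe), from -0.94 to 0.035 for AT4G13580 (WT, - Fe against + Fe), from -0.64 to 0.25 for AT4G39675 at + Fe and from -0.22 to 0.68 for its interaction, and from -0.030 to 1.27 for the interaction of AT1G70880. The cause was not tested. With the week as a replicate block, the number of members called was 0 in each root comparison and 145 in each comparison of organs, so that the pairing changed no call.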
